A study of Mus musculus with 2 samples.

Results

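Cdc20, Fzr1, Ube2c, Ube2s, Fbxo5, Pttg1, Espl1, Skp2, Cks2 and Gmnn encode 10 proteins of cell cycle proteolysis, the tagging of regulators with ubiquitin and their destruction by the proteasome. They were chosen by name and role, as genes of the anaphase-promoting complex or cyclosome (APC/C), the SCF ligase and their direct targets, and each was found by its symbol in the table of loci, where 10 of 10 had a row of their own among 33224 gene symbols. The mRNA levels come from sequenced livers of male C57BL/6 mice that were regrowing after partial hepatectomy (PH), the surgical removal of most of the liver, with tissue taken at 48 hr. The WT library came from wild-type mice and the library labelled KO from PPARbeta-null mice, which lack the nuclear receptor PPARβ, and the labels give an age of 4 months for both. Each genotype was sequenced as 1 library, so no value carries an error between mice and no test of genotype was possible. The number of mice behind a library, the way the null allele was made and any uninjured control are not given in the sources used here for these libraries. WT and KO below name the libraries by their labels.

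The APC/C is a ubiquitin ligase of many subunits that acts from mitosis to G1 phase. Cdc20 activates it in mitosis and Fzr1 (also called Cdh1) from late mitosis through G1, and the complex then ends mitosis by marking securin and the B-type cyclins for destruction. The SCF is built from Skp1, Cul1, Rbx1 and an exchangeable F-box protein, and with the F-box protein Skp2 it removes Cdk inhibitors around the entry into S phase. Hepatocytes of an adult liver are quiescent and re-enter the cell cycle after PH, when mRNAs of several of these proteins normally rise with S phase and mitosis.

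Many genes of mitosis share short promoter elements, among them the cell cycle genes homology region (CHR), TTTGAA, and the CCAAT box. RefSeq promoter windows, 250 bases before to 50 after a transcript start on build GRCm38.p6, were matched by symbol for 9 of the 10 genes, with 1 window each except 2 for Skp2. Gmnn had no entry. The 7 sequences below run from 100 bases before the start to 20 after it, 5′ to 3′ on the strand of the gene, and are shown because they hold both elements close to the start (the first 4), because the gene was over 10-fold lower in KO and holds neither (Pttg1), or because the gene was among those that differed least between the libraries (the last 2). Capitals mark TTTGAA and CCAAT or, on the other strand, TTCAAA and ATTGG.
Cdc20: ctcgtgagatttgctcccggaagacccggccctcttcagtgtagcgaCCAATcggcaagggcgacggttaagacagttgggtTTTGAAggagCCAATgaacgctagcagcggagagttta
Espl1: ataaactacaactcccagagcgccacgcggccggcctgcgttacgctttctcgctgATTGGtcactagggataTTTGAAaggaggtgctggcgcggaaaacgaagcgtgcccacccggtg
Ube2c: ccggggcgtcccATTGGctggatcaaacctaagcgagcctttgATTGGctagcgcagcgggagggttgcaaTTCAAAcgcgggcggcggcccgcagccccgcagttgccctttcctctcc
Fbxo5: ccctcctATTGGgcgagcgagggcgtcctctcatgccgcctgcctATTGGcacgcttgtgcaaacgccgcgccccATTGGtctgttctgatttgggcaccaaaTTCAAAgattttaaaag
Pttg1: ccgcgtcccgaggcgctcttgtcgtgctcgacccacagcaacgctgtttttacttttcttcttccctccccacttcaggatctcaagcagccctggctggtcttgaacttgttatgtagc
Cks2: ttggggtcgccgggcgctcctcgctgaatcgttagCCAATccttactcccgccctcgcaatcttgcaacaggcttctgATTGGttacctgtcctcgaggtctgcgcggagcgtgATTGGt
Fzr1: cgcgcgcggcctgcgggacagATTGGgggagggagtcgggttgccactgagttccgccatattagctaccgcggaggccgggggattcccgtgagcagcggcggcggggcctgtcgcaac

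These stretches lie at chr4:118437324-118437443 (minus strand) for Cdc20, chr15:102296193-102296312 (plus strand) for Espl1, chr2:164769829-164769948 (plus strand) for Ube2c, chr10:5805446-5805565 (minus strand) for Fbxo5, chr11:43425962-43426081 (minus strand) for Pttg1, chr13:51645132-51645251 (plus strand) for Cks2 and chr10:81378351-81378470 (minus strand) for Fzr1. TTTGAA began 18 bases before the start of Cdc20, 27 before that of Espl1 and 29 before that of Ube2c, where it lay on the other strand. In Fbxo5 it began 4 bases after the start, again on the other strand. In the first window of Skp2 it occurred at 63 and at 55 bases before the start, and it was not in the second window of Skp2 or in those of Fzr1, Ube2s, Pttg1 and Cks2.

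Counted over both strands of the whole window, 5 of the 9 genes held TTTGAA, beside 17.9% of all 32817 mouse promoter windows of the table. In 4 of them it began between 50 bases before and 10 after the start, beside 3.43% of all windows. CCAAT was found in 7 of the 9 genes, beside 37.4% of all windows. Both elements together were in Cdc20, Espl1, Ube2c, Fbxo5 and the first window of Skp2, beside 6.94% of all windows. A gene was counted if any of its windows matched, which bears on Skp2 only, whereas the shares are per window. The E2F site, searched as TTTCCCGC or TTTGGCGC, was found in 0 of the 9 genes and in 1.56% of all windows, and none of these motifs contains another. A match says only that the letters are in the window, and a missing match only that they are not.

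**Figure D1:**
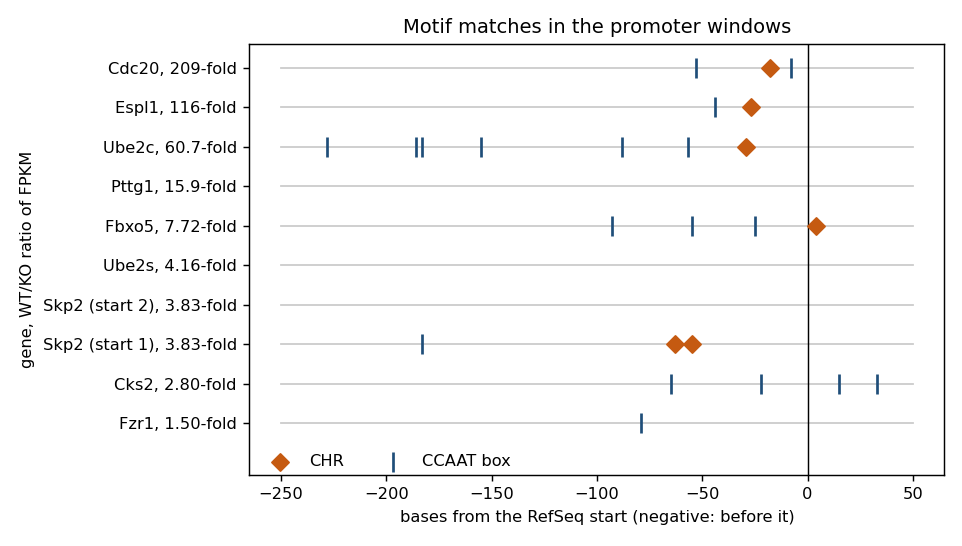
Positions of TTTGAA (CHR, diamonds) and CCAAT (bars) in the RefSeq windows of 9 genes, on either strand, in bases from the transcript start; genes are ordered by the WT/KO ratio of FPKM beside their names. The 3 genes with the highest ratios, Cdc20, Espl1 and Ube2c, each hold a CHR between 18 and 29 bases before the start. The window of Pttg1, the next at 15.9-fold, holds neither element. Ube2s, at 4.16-fold, holds no CHR, whereas the first window of Skp2, at 3.83-fold, does.

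The mRNA of all 10 genes was lower in the library labelled KO. The difference was over 2-fold for 9 of them and over 10-fold for 4 (Cdc20, Espl1, Ube2c and Pttg1), and Fzr1 was the exception at 1.50-fold. Values are FPKM, fragments for each kilobase of transcript, scaled to the mapped fragments of a library, which the authors estimated per locus, so levels of different genes can be compared per length. Summed over the 10 genes, FPKM came to 206 in WT against 36.6 in KO, which is 5.63-fold lower. The median log2 KO/WT was -2.31, with a range of -7.01 to -0.57, on the scale log2(FPKM + 0.1), which understates the difference of low genes. With a pseudocount of 1 FPKM the median was -1.50.

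Most genes of these libraries leaned the same way, and that is the background of these counts. Among the 11054 genes whose mean FPKM over both libraries was 1 or more, 75.7% were lower in KO by any amount, 8.88% were more than 2-fold lower, 1.35% more than 10-fold lower and 1.75% more than 2-fold higher. Their median log2 KO/WT was -0.24, a WT/KO ratio of 1.18. Relative to that shift, that is after centring on this median, the median of the 10 genes was -2.07, and 9 remained more than 2-fold lower, beside 6.31% of all genes. Espl1, with an FPKM of 1.33 and 0.0115, had a mean below 1 and is outside the 11054 genes, and the other 9 are among them. RNA of whole liver was measured, so fewer cells in the cycle and less mRNA per cell cannot be told apart.

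**Figure D2:**
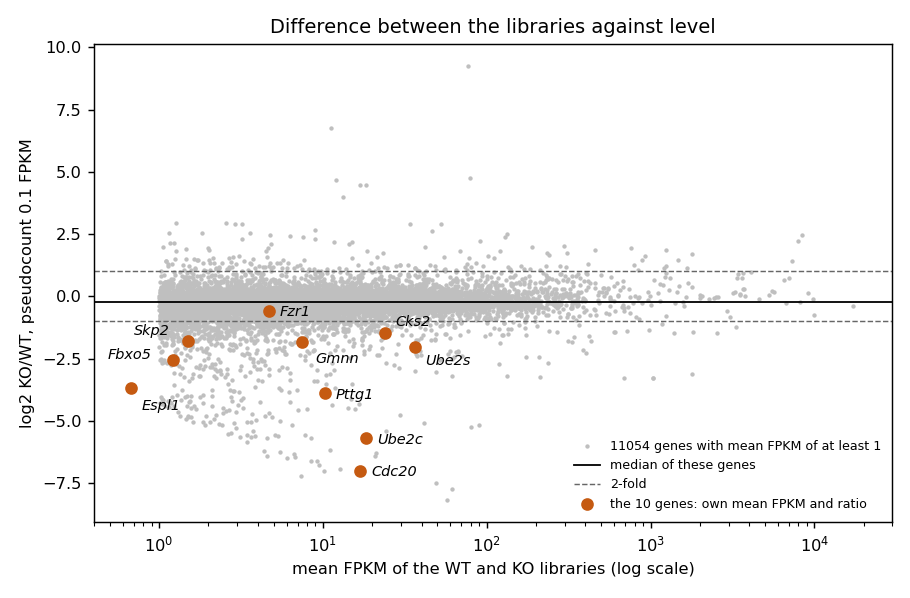
log2 KO/WT (pseudocount 0.1 FPKM) against the mean FPKM of both libraries on a log axis, for 11054 genes (grey) and the 10 genes (orange, named); the solid line is the median of -0.24 and the dashed lines mark 2-fold. Cdc20 (-7.01) and Ube2c (-5.70) lie at the lower edge of the cloud, Fzr1 (-0.57) lies inside it, and Espl1 lies left of the grey genes because its mean is below 1.

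The depth behind these values was estimated from the steps in which the low FPKM of 821 single-exon genes rise, since 1 fragment is the smallest step. For a 1 kb transcript this step was 0.0176 FPKM in WT and 0.0178 in KO, so that 1 FPKM rested on about 56.8 and 56.0 fragments. The 95% intervals of WT/KO ratios below are exact binomial intervals on fragments estimated in this way with the median length of the annotated coding transcripts. Intervals that compare the ratios of a pair of genes use a normal approximation on the log scale instead. Both kinds of interval cover counting error only, and the spread between mice is unknown.

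The activators of the APC/C were both lower in KO, but to unlike degree. Cdc20, which brings substrates to the APC/C in mitosis and is the protein held back by the spindle checkpoint, reached 33.6 FPKM in WT against 0.161 in KO, about 3427 and 16.2 fragments. This is a WT/KO ratio of 209 (95% interval 129.9 to 369.9). On the scale with the pseudocount, which understates low genes, its log2 of -7.01 was the 6th lowest of the 11054 genes. In WT its level exceeded that of 82.1% of these genes, and in KO that of 0.706%. Its locus on NCBI37 (mm9) runs from 118100698 to 118109957 on chromosome 4 (minus strand), and the annotated gene covers 118105506 to 118109957 of it. The assembled locus also spans the gene Elovl1, which has a row of its own with 49.2 in WT and 29.7 in KO (1.66-fold). How fragments of such shared stretches were divided is not given.

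Fzr1, which takes over from Cdc20 and keeps mitotic regulators low through G1, reached 5.63 FPKM in WT against 3.76 in KO (about 546 and 359 fragments). The ratio was 1.50 (95% interval 1.31 to 1.72), or 1.27 relative to the median gene. Its log2 of -0.57 had 20.2% of the 11054 genes below it. The locus (chromosome 10, 80820236 to 80841261, minus strand) also covers F630110N24Rik and 4930404N11Rik, which have rows of their own. F630110N24Rik had 3.24 in WT and 1.27 in KO (2.56-fold), and 4930404N11Rik had 1.41 and 0.746 (1.89-fold), both further apart than Fzr1. The order of the activators turned with the library. Cdc20 was 5.98-fold above Fzr1 in WT, whereas Fzr1 was 23.3-fold above Cdc20 in KO. The WT/KO ratio of Cdc20 was 139 times that of Fzr1 (95% interval 84.0 to 231).

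The ubiquitin-conjugating enzymes (E2s) of the APC/C were both lower in KO, and also to unlike degree. Ube2c, which places the first ubiquitins on a substrate, reached 36.1 FPKM in WT against 0.594 in KO (about 3236 and 52.6 fragments). The ratio was 60.7 (95% interval 45.9 to 80.5), with a log2 of -5.70, the 21st lowest of the 11054 genes. This rank also rests on the pseudocount. Bub1b, for example, came after Ube2c with a log2 of -5.27 although its ratio was 109. Its locus (chromosome 2, 164595398 to 164605467, plus strand) touches Tnnc2, a muscle troponin whose own row held 0.0453 in WT and 0 in KO.

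Ube2s, which extends the chains that Ube2c begins, was the most abundant of the 10 mRNAs in both libraries, at 58.7 FPKM in WT against 14.1 in KO (about 3294 and 780.0 fragments). Its ratio was 4.16 (95% interval 3.85 to 4.51), at chromosome 7, 4759616 to 4763942, minus strand. Ube2s was 1.63-fold above Ube2c in WT and 23.7-fold above it in KO. The ratio of Ube2c was 14.6 times that of Ube2s (95% interval 10.98 to 19.4).

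Fbxo5 (Emi1), an inhibitor that holds the APC/C off from S phase to the start of mitosis, was a low mRNA in both libraries. It reached 2.15 FPKM in WT against 0.278 in KO, about 237 and 30.2 fragments, at chromosome 10, 4540941 to 4547381. The ratio was 7.72 (95% interval 5.31 to 11.8) and the log2 -2.57. The gene lies on the plus strand in NCBI37 and on the minus strand in GRCm38.p6.

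Among the proteins that the APC/C removes, Pttg1 (securin) inhibits separase until anaphase and Gmnn (geminin) blocks a second licensing of replication origins. Pttg1 reached 19.3 FPKM in WT against 1.21 in KO (about 768 and 47.6 fragments), a ratio of 15.9 (95% interval 11.8 to 21.6), at chromosome 11, 43233752 to 43239753, minus strand. Gmnn reached 11.7 FPKM in WT against 3.25 in KO (about 697 and 190.5 fragments), a ratio of 3.61 (95% interval 3.08 to 4.27), at chromosome 13, 24843714 to 24855626, minus strand. Securin mRNA was thus 1.65-fold above that of geminin in WT and below it in KO, where Gmnn was 2.68-fold above Pttg1. The ratio of Pttg1 was 4.41 times that of Gmnn (95% interval 3.16 to 6.15). Cdt1, the licensing factor that geminin binds, was not analysed here.

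Espl1, the protease separase that cuts cohesin at anaphase and is the target of securin, was the lowest of the 10 mRNAs in both libraries. It reached 1.33 FPKM in WT against 0.0115 in KO, and its long transcript of 6630 nt still gave about 501 fragments in WT against 4.26 in KO. The ratio was 116, and with so few fragments in KO its 95% interval was wide, from 47.9 to 455. The log2 was -3.68 with the pseudocount and -6.86 without it. Pttg1 stood 14.5-fold above Espl1 in WT and 106-fold above it in KO. The ratio of Espl1 was 7.30 times that of Pttg1 (95% interval 2.69 to 19.8, which is rough with so few fragments in KO). The gene lies at chromosome 15, 102126724 to 102154787, plus strand.

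Skp2 and Cks2, on the SCF side, were lower in KO by 3.83-fold and 2.80-fold. Skp2, the F-box protein that recognises the Cdk inhibitor p27, reached 2.39 FPKM in WT against 0.623 in KO (about 638 and 164 fragments), a ratio of 3.83 (95% interval 3.23 to 4.58). Its locus (chromosome 15, 9041742 to 9132238, minus strand) also spans Lmbrd2, a neighbour with a row of its own at 14.4 in WT and 14.1 in KO. Cks2, a small Cdk-binding protein of the family that helps Skp2 and the APC/C to reach phosphorylated substrates, reached 35.2 FPKM in WT against 12.6 in KO (about 1385 and 489 fragments). Its ratio was 2.80 (95% interval 2.52 to 3.10), at chromosome 13, 51740601 to 51746029, plus strand. The ratio of Skp2 was 1.37 times that of Cks2 (95% interval 1.12 to 1.67). Cks1b, the paralog of Cks2 and the usual partner of Skp2, reached 15.7 FPKM in WT against 5.16 in KO, a ratio of 3.04.

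The order of levels therefore differed between the libraries. In WT, Ube2s (58.7) was followed by Ube2c (36.1), Cks2 (35.2), Cdc20 (33.6), Pttg1 (19.3), Gmnn (11.7), Fzr1 (5.63), Skp2 (2.39), Fbxo5 (2.15) and Espl1 (1.33). In KO, Ube2s (14.1) and Cks2 (12.6) led, and Fzr1 (3.76), Gmnn (3.25), Pttg1 (1.21), Skp2 (0.623), Ube2c (0.594), Fbxo5 (0.278), Cdc20 (0.161) and Espl1 (0.0115) followed. Ube2c and Cdc20 were among the 4 highest in WT and stood below Skp2 in KO, and Ube2s and Espl1 kept the first and the last place. With 1 library per genotype, which neighbours in these orders differ beyond the spread between mice cannot be said.

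**Figure D3:**
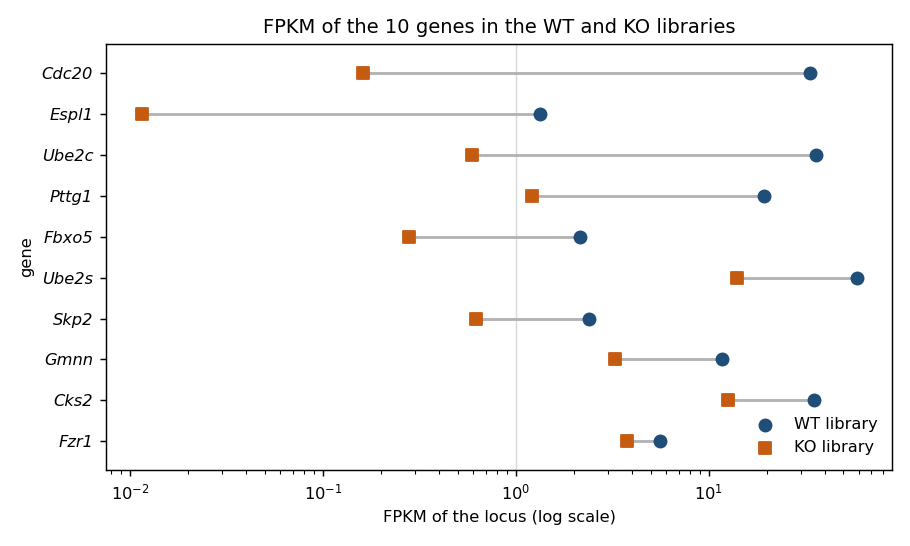
FPKM of the 10 genes on a log axis in the WT library (circles) and the KO library (squares), 1 library each, joined by a line and ordered by the WT/KO ratio. Every square lies left of its circle, with the longest lines for Cdc20 (33.6 to 0.161) and Espl1 (1.33 to 0.0115) and the shortest for Fzr1 (5.63 to 3.76).

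Near-identical copies elsewhere in the genome bear on 6 of the 10 genes. Copies of at least 50% of the coding sequence at 90% identity or more were found in NCBIM37 for Cks2 (5, with up to 100% identity), Ube2c (2), Cdc20 (1), Ube2s (1, with 99.9% identity), Fbxo5 (1) and Gmnn (1), so reads of these genes could have been placed on a copy. For Fzr1, Pttg1, Espl1 and Skp2 no such copy was found. Of all these copies, 1 of Cdc20 (Gm7856, 0.0329 in WT and 0 in KO) and 1 of Cks2 (Gm12891, 0.648 in WT and 0.174 in KO) had a row of a short locus. Whether other copies lie inside longer assembled loci was not looked at. With these rows added, the ratio of Cdc20 was 209 and that of Cks2 was 2.81.

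Other genes of the same machinery were taken from 7 lists by role, with 84 genes in all, of which Cdt1 and Fbxo43 gave no ratio. The lists were written with earlier results of these data known. Among the 14 core subunits of the APC/C, 14 were lower in KO, beside 75.7% of all genes, and 0 by more than 2-fold, beside 8.88%. The median log2 was -0.55, beside -0.24 over all genes, and -0.31 after centring. Anapc13, the most abundant, reached 44.2 FPKM in WT against 42.3 in KO, and the scaffold subunit Anapc5 had 34.1 and 20.8. Anapc11, the RING subunit that binds the E2, had 15.7 and 8.002, the furthest of the subunits, followed by 3200002M19Rik (Anapc15) with 12.3 and 6.80. Cdc26 had 16.3 and 15.0, and relative to the median gene Cdc26 and Anapc13 turned to the other direction.

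The 20 mitotic and S phase proteins known as APC/C substrates stood apart from the subunits. All 20 were more than 10-fold lower in KO, beside 1.35% of all genes, with a median log2 of -5.28. Sgol1 (1.64 in WT and 0.0359 in KO) has a mean FPKM below 1 and is outside the genes behind that share. Ccnb1 and Ccnb2, the B-type cyclins, had an FPKM of 20.2 and 18.4 in WT and of 0.0562 and 0.0907 in KO, which are ratios of 360 and 203. Rrm2, a subunit of ribonucleotide reductase, had 47.5 in WT and 1.03 in KO, and Cdca3 had 41.1 and 0.390. The kinases Aurka (16.8 and 1.52) and Nek2 (16.3 and 1.43) were at the near end of the list, with ratios of 11.1 and 11.4. In KO, Ckap2 and Bub1 rested on under 3 fragments, and with both set to that floor the median stayed at -5.28.

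Of the 9 checkpoint proteins and other regulators of the APC/C, Fbxo43, a relative of Fbxo5, was listed at 0 in both libraries. The other 8 were lower in KO, beside 75.7% of all genes, and 4 of them by more than 2-fold, beside 8.88%, with a median log2 of -0.84. Bub1b, a checkpoint protein that binds Cdc20, reached 5.80 FPKM in WT against 0.0533 in KO, a ratio of 109. Mad2l1, its partner in that inhibition, had 22.2 and 1.64, a ratio of 13.6, and Bub3 had 21.6 and 10.2. Mad1l1, which recruits Mad2l1, had 5.21 and 4.19. Ube2d3, a general E2 that can also serve the APC/C, had 122 and 111, and relative to the median gene its direction turned.

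The common parts of the SCF were near the median of all genes. Of the 13 genes of the SCF core and of neddylation, the modification that activates cullins, 11 were lower and 2 higher in KO, and 1 was more than 2-fold lower, namely Cks1b, beside 75.7% and 8.88% of all genes, and the median log2 was -0.21, which centring turned to 0.03. Skp1a, the adaptor, reached 129 FPKM in WT against 111 in KO, Cul1, the scaffold, had 20.2 and 22.6, and Ube2r2, an E2 of the SCF, had 28.3 and 32.1. Cand1, which exchanges F-box proteins on Cul1, had 16.9 and 11.7, and Ube2m, the E2 of Nedd8, had 91.2 and 89.1 in a row that names a further gene. Relative to the median gene Ube2m and Dcun1d1 were higher in KO as well, by 0.21 and 0.12 on the log2 scale. Nedd8 (0.056), Uba3 (0.035), Skp1a (0.03) and Rbx1 (0.0083) were barely above the median gene.

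Of 7 other F-box proteins, 6 were lower and 1 higher in KO, beside 75.7% lower of all genes. The median log2 was -0.29, near that of all genes (-0.24), and -0.0469 after centring. Ccnf, which is itself a cyclin and varies with the cycle, was the only one past 2-fold, with 7.65 in WT and 3.11 in KO. Fbxw11 had 10.8 and 10.2, Fbxw8 had 10.7 and 8.78, Fbxw7 had 2.21 and 1.78, and Btrc had 2.28 and 2.32. Relative to the median gene Fbxw11 and Fbxl12 were higher in KO, by 0.15 and 0.065 on the log2 scale.

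Of 11 known SCF substrates, 9 were lower and 2 higher in KO, beside 75.7% lower of all genes. By more than 2-fold, 6 were lower, beside 8.88% of all genes, and the median log2 was -0.91. Among these 6, Cdkn1c (0.361 in WT and 0.145 in KO) and Orc1 (0.391 and 0.0152) have a mean FPKM below 1. They are outside the 11054 genes behind that share, which was 21.4% without the filter on low FPKM. Ccne2, a G1/S cyclin, reached 5.42 FPKM in WT against 0.298 in KO, a ratio of 18.2, and Wee1, a kinase that restrains Cdk1, had 8.56 and 0.869, a ratio of 9.85. Cdkn1a (p21), a Cdk inhibitor, was higher in KO with 33.5 in WT and 40.4 in KO, and Ccnd1 (cyclin D1) had 21.3 and 23.5. The directions of Ccne2, Wee1, Cdkn1a and Ccnd1 held after centring, while Rbl2, which was 1.08-fold lower in KO and is named after its values were seen, turned.

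Cohesin, the ring that separase opens, and its regulators were all lower in KO (9 of 9), 1 by more than 2-fold, beside 75.7% and 8.88% of all genes, with a median log2 of -0.39, or -0.15 after centring. Rad21, the subunit that separase cuts, was that gene, at 30.2 FPKM in WT against 11.3 in KO, a ratio of 2.67. Smc3 had 7.09 and 4.24, and Wapal, which opens cohesin without cleavage, had 21.1 and 18.2. Nipbl, the loader, had 5.13 and 4.70. Relative to the median gene Nipbl was higher in KO by 0.11 on the log2 scale, and Wapal by only 0.027.

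**Figure D4:**
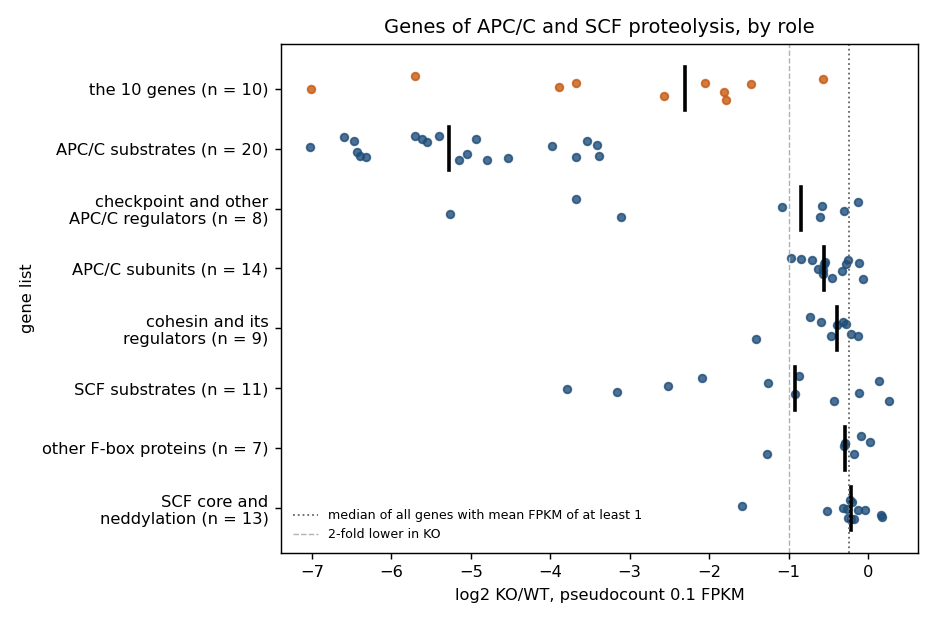
log2 KO/WT (pseudocount 0.1 FPKM) of each gene (points), by list, with the median of the list as a black bar; the dotted line is the median of the 11054 genes (-0.24) and the dashed line marks 2-fold lower in KO. The median of the APC/C substrates (-5.28) lies left of that of the 10 genes (-2.31), the median of the APC/C subunits (-0.55) lies left of the dotted line, and that of the SCF core (-0.21) lies close to it.

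Ppard, the targeted gene, reached 2.67 FPKM in WT against 2.42 in the library labelled KO, a ratio of 1.10. The locus was thus at about the same level in both, and since FPKM of a locus counts fragments of any exon and the deleted exons are not given, it checks nothing about the allele. Both libraries are of liver, and the summed levels of 8 marker lists differed by 1.93-fold or less between the libraries, with Col1a1, a collagen of stellate cells, the furthest apart of the markers with a mean FPKM of at least 0.1, at 8.56 in WT and 1.75 in KO. Of 8 hepatocyte markers 6 could be used, of which 2 were lower and 4 higher in KO, with a summed FPKM of 18262 in WT and 21179 in KO. Cps1, a urea cycle enzyme, was 2.15-fold lower. The summed FPKM was 52.8 in WT and 33.8 in KO for 6 macrophage markers, 48.5 and 34.6 for 6 endothelial markers, 25.1 and 13.0 for 5 stellate cell markers and 29.8 and 25.7 for 5 cholangiocyte markers. The abundant Spp1 (24.5 and 22.7) makes up most of that sum, and Krt19 (1.72 and 0.559) and Krt7 (1.12 and 0.360) were 3.08-fold and 3.11-fold lower in KO. The summed FPKM was 12.9 and 6.93 for 5 neutrophil markers, with Mpo at 0 in both, 1.22 and 0.735 for 5 lymphocyte markers, and 21.3 and 38.0 for 6 erythroid markers, with Rhag at 0 in both. The part of these cells in the values of the 10 genes was not tested.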

How the data were processed

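Hepatic RNA was sequenced as 1 library per genotype with a read length of 100 bp, single end by the methods of the study and paired end by the labels. The FPKM values were deposited by the authors as 1 value per locus and library. Per the labels and the methods, reads were aligned with TopHat (2.0.0) to NCBI37 (mm9), transcripts were assembled with Cufflinks (1.3.0), and FPKM was estimated with Cuffdiff. Further columns hold the authors' fold change, test statistic, p-value, q-value and call between these libraries and were not used.

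Of the 38016 loci, 21 marked HIDATA, a failed estimate, were left out, Alb and Trf among them. Rows of 1 symbol were summed, rows naming several symbols (850) were counted once in the background, and 2302 rows had no symbol. The genes named were the 10 genes, Ppard, Cks1b, and of each list the 2 with the highest mean FPKM and the 2 furthest in each direction among those with a mean of at least 1. Other genes named are neighbours, copies or exceptions to a count, chosen after their values were seen. The 10 genes and all lists were chosen with earlier results of these data known. List genes needed a mean FPKM of at least 0.1. The shares of all genes set beside them were taken over genes with a mean of at least 1. Copies were searched with BLAST over at least 200 nt. The alternatives were the pseudocount, the scaling, the filter on low FPKM and the handling of rows. The scripts ran on Python 3.11.15 with pandas 2.3.3, numpy 2.4.6, scipy 1.17.1 and matplotlib 3.10.9 and were tested on simulated data. Coordinates are counted from 1.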

Additional observations from a re-analysis of the deposited data

How the results depend on the processing

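With 1 library per genotype, no library could be left out, and the values describe these libraries only. No paired analysis was possible because the labels link neither library to the other. Under each pseudocount, scaling and row choice run, all 10 genes remained lower in KO, and none of them changed direction. When an FPKM of at least 1 was required in both libraries, only Fzr1, Ube2s, Pttg1, Cks2 and Gmnn were left to count. Of these, 4 were more than 2-fold lower, all but Fzr1. The share of all genes under this filter was not computed. A pseudocount of 1 FPKM brought the median log2 of the 10 genes from -2.31 to -1.50, that of the APC/C substrates from -5.28 to -3.27, that of the SCF substrates from -0.91 to -0.45, that of Espl1 from -3.68 to -1.20 and that of Cdc20 from -7.01 to -4.90, because it outweighs values near 0, whereas a pseudocount of 0.01 FPKM moved Espl1 to -5.97. Centring on the median of all genes turned the median of the SCF core from -0.21 to 0.0281 and moved that of cohesin to -0.15. Equal upper quartiles gave 0.0192 and -0.16, and they moved the median of all genes from -0.24 to -0.0133. Without the filter on low FPKM, 21.4% of genes were more than 2-fold lower in KO. Taking the shortest or longest coding transcript, an alternative added after seeing the data, moved the estimated fragments in KO of Pttg1 between 32.4 and 114 and those of Ube2c between 32.2 and 73.0. Among the 10 genes depth limited Espl1 most, with about 4.26 fragments in KO.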
